A study of Mus musculus with 24 samples.

Results

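Protein folding in the endoplasmic reticulum (ER) was followed through 10 genes in the nucleus accumbens (NAc) of male and female mice: *Hspa5*, *Hsp90b1*, *Calr*, *Pdia4*, *Pdia6*, *Dnajb9*, *Sdf2l1*, *Creld2*, *Manf* and *Xbp1*. These genes were chosen by their known role together with their measured levels and stress changes in these same libraries, so their changes are given as a description, without a test. They are 10 of 38293 genes counted, and all 10 are among the 18593 genes that passed the filter on low counts, which asked for over 5 reads in 80% or more of the libraries within a group. C57BL/6J mice were either left unstressed or exposed to Subchronic Variable Stress (SCVS), in which foot shock, tail suspension and restraint were given in turn, 60 min a day, over 6 days. The groups were unstressed males (NSM), stressed males (SM), unstressed females (NSF) and stressed females (SF), and the tissue of stressed mice was taken 24 h after the last stressor. All mice were gonadally intact, the females were in estrus or proestrus, and their age was 9 weeks by the labels and 8 weeks by the methods of the study. Each of the 3 libraries of a group pooled 10 punches from 5 mice, so that the spread between libraries is that between pools and not between animals.

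Libraries held 41076780 to 60867747 counted reads, and all 12 markers of medium spiny neurons, the principal neurons of the NAc, were expressed in every library, with a summed level of 5666 to 6456 CPM in NSM and 6013 to 6818 CPM in SM. CPM are counts scaled to library size with TMM factors. Other markers moved with male stress. The 14 markers of cortical glutamatergic neurons summed to 237 to 254 CPM in NSM, 292 to 431 in SM, 249.8 to 629 in NSF and 269.9 to 360 in SF, and 2 of the 14 were called higher in SM by the rule given further on. Abundant markers weigh most in these sums, such as *Lmo4* with means of 115 CPM in NSM and 120.5 CPM in SM. The median log2 change of the 14 markers in males was 2.15, with 3 of them below 0. *Slc17a7*, the vesicular glutamate transporter of cortical neurons, had means of 10.8 CPM in NSM, 107 in SM, 174 in NSF and 54.9 in SF. The 5 erythroid genes summed to 21.8 to 27.4 CPM in NSM and 38.5 to 47.2 CPM in SM. All 5 were called higher in SM, beside 2.36% of all tested genes. The 8 oligodendrocyte markers summed to 4805 to 5345 CPM in NSM and 5745 to 5772 CPM in SM with none called, and the 8 microglial markers to 292 to 319 and 328 to 367 CPM with 2 called higher. One NSM library held choroid plexus transcripts, with 111 CPM for 7 markers, where the other two NSM libraries held 39.5 and 41.4 CPM. No list was at 0 for any of its markers over a whole group. In pooled tissue, fewer cells of a type and less RNA per cell cannot be told apart.

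Proteins that enter the ER are held by chaperones and given their disulfide bonds by the protein disulfide isomerases. When folding load exceeds capacity, the sensors IRE1, PERK and ATF6 start the unfolded protein response. IRE1 splices the *Xbp1* mRNA into the form that encodes an active transcription factor, and XBP1 and the cleaved ATF6 raise the transcription of ER chaperones, while PERK slows translation and favors the factors ATF4 and CHOP (*Ddit3*). Secretory and peptide-releasing cells, neurons among them, rely on this machinery for receptors, channels and neuropeptides.

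A DNA element through which ATF6 and the factor NF-Y act on such genes is the ER stress response element (ERSE), CCAAT and CCACG with 9 bases between them. It was searched on both strands of RefSeq promoter windows (GRCm38.p6) that reach from 250 bases before to 50 bases after a gene's start. The element was found in 39 of 32851 windows (0.119%), and 5 of the 9 members with a window had it. *Manf* was not in this set of windows. The 30-base stretches around the 6 matches are shown because they are what these 5 members share in sequence, with the ends of the element in capitals. A stretch marked "opposite" is written 5′ to 3′ on the strand opposite to the gene. Each distance is that of the element's base farthest before the start, its first base on the gene's strand. In an opposite stretch this is the last base of the printed CCACG.
Hspa5, chr2:34772020-34772049, gene on the plus strand, first base of the element 65 bases before the start: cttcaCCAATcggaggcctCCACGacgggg
Hsp90b1, chr10:86705632-86705661, gene on the minus strand, 212 bases before the start: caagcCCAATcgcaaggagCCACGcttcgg
Hsp90b1, chr10:86705528-86705557, opposite, 107 bases before the start: actcaCCAATcgtgcctcaCCACGcactct
Calr, chr8:84847070-84847099, gene on the minus strand, opposite, 162 bases before the start: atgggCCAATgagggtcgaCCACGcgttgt
Pdia6, chr12:17266486-17266515, gene on the plus strand, 98 bases before the start: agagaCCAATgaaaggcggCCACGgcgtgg
Creld2, chr15:88819514-88819543, gene on the plus strand, opposite, 126 bases before the start: gtggaCCAATtgaggctcgCCACGagaagc

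In the windows of *Pdia4*, *Xbp1*, *Dnajb9* and *Sdf2l1* these letters were not found. A second element, ERSE-II (ATTGG and CCACG with 1 base between), was in 0.0365% of the windows and in none of the members. The XBP1 element TGACGTGA was in 0.441% of the windows and in that of *Hspa5*, and its variant that ends in G was in 0.676% and in none of the members. The matches describe letters and not sites of binding.

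The members span a wide range of levels. Per length of their annotated exons, *Calr*, the calcium-binding lectin chaperone calreticulin, was highest with a mean of 123 RPKM (CPM per kilobase of exon) over all libraries, followed by *Hspa5* with 94.1 and *Hsp90b1* with 60.9 RPKM. *Pdia6* (27.6), *Dnajb9* (23.9), *Xbp1* (23.8) and *Pdia4* (21.2 RPKM) formed a middle group, and *Creld2* (11.1), *Manf* (10.9) and *Sdf2l1* (6.22 RPKM) were lowest. In NSM, *Calr* (133 ± 7.85 RPKM, SD, n = 3) and *Hspa5* (122 ± 10.3) had overlapping SD ranges. In SM they lay apart, at 115 ± 6.60 and 70.6 ± 4.75 RPKM. *Creld2* and *Manf* lay within each other's spread in NSM, at 12.9 ± 0.37 and 13.1 ± 1.37 RPKM. The exons of *Manf* share 146 bases with *Vprbp* on the other strand. Those of *Hsp90b1* share 415 bases with the lincRNA *1810014B01Rik* and those of *Pdia6* 147 bases with *Atp6v1c2*, also on the other strand. Without a stated strand setting reads from these stretches cannot be told apart. On the same strand, exons of *Hsp90b1* share 84 bases with *Gm15344* and 133 bases with *AC152453.1*, and those of *Pdia4* share 14 bases with *Mir704*. Each member rested on at least 178 reads in each library, the lowest being those of *Sdf2l1*, and those of *Hspa5* numbered 10370 to 24599.

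**Figure D1:**
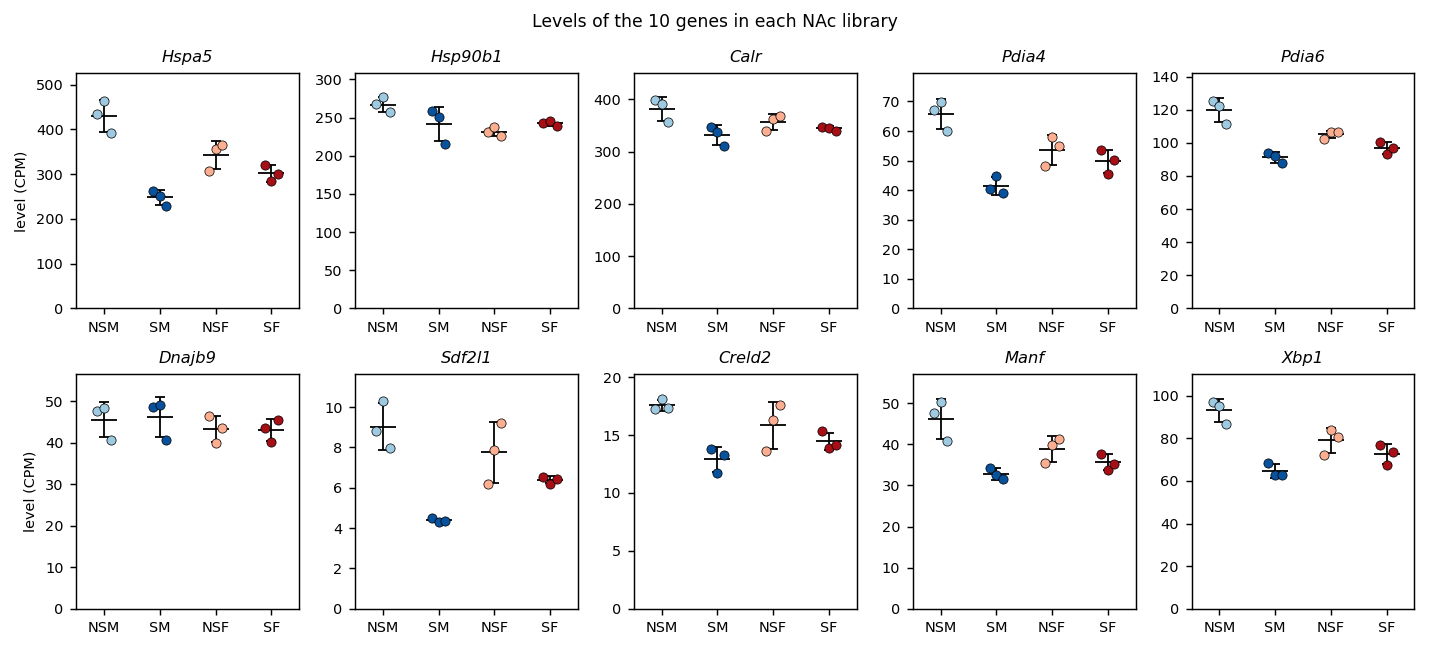
Level of each of the 10 genes in CPM (linear axis from 0) in the 12 NAc libraries. Points are libraries, horizontal bars group means and whiskers the SD over 3 libraries. The 3 SM libraries lie below the 3 NSM libraries for 8 genes, and the groups overlap for *Hsp90b1* and *Dnajb9*.

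SCVS was first compared with no stress in males. The 3 SM libraries lay below all 3 NSM libraries for 8 of the 10 genes, an arrangement found for 11.7% of all tested genes (2180 of 18593). A gene was called when the unadjusted p of a voom-limma fit over all genes was under 0.05 and the fold change at least 1.3. By this rule 7 members were called lower, while 4.08% of the tested genes were called lower and 2.36% higher. The same contrast had served to choose the members, so nothing is read from these counts. At an unadjusted p under 0.05 without the fold, 9 members would be counted beside 21.5% of all tested genes. The median log2 change of the members was -0.47, that of all tested genes -0.01.

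Among the chaperones, *Hspa5* encodes BiP, the Hsp70 of the ER, which binds entering chains and keeps the stress sensors inactive. *Hspa5* (ENSMUSG00000026864, chromosome 2 of NCBIM37, 34627490 to 34632051) stood at 434, 463 and 392 CPM in the NSM libraries and at 262, 252 and 229.7 CPM in the SM libraries. All SM values were below all NSM values, with no SM library above 262 and no NSM library below 392 CPM. The log2 change was -0.79 with a standard error of 0.08, or 0.578 times the unstressed level. *Calr* (ENSMUSG00000003814, chromosome 8, 87365749 to 87370833) stood at 398, 391 and 356 CPM in NSM and at 348, 337 and 311 CPM in SM. The groups did not overlap, but lay close, with a log2 change of -0.20 (standard error 0.06). *Hsp90b1* (ENSMUSG00000020048, chromosome 10, 86152954 to 86168254), the Hsp90 of the ER known as GRP94, stood at 267, 277 and 257 CPM in NSM and at 258, 251 and 216 CPM in SM. The groups overlapped, and the log2 change of -0.15 (standard error 0.06) rested on the third SM library, without which it was -0.07.

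The disulfide isomerases of the set are *Pdia4* (ERp72) and *Pdia6* (P5), which form and rearrange disulfide bonds. *Pdia4* (ENSMUSG00000025823, chromosome 6, 47746141 to 47763511) stood at 67.1, 69.8 and 60.02 CPM in NSM and at 40.5, 44.9 and 38.9 CPM in SM. *Pdia6* (ENSMUSG00000020571, chromosome 12, 17273351 to 17291576) stood at 126, 122 and 111 CPM in NSM and at 93.8, 92.0 and 87.7 CPM in SM. For both enzymes each SM library was lower than each NSM library, with a log2 change of -0.66 (standard error 0.08) for *Pdia4* and of -0.39 (standard error 0.05) for *Pdia6*.

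*Sdf2l1* and *Dnajb9* encode partners of BiP. SDF2L1 works with ER J-domain proteins in the BiP cycle, and DNAJB9 (ERdj4) is itself such a J-domain protein. *Sdf2l1* (ENSMUSG00000022769, chromosome 16, 17130231 to 17132476) had 8.79, 10.3 and 7.99 CPM in NSM and 4.48, 4.32 and 4.36 CPM in SM. This was the largest change of the set, a log2 change of -1.03 (standard error 0.14), with SM libraries that were nearly alike. *Dnajb9* (ENSMUSG00000014905, chromosome 12, 45306884 to 45311055) had 47.8, 48.3 and 40.7 CPM in NSM and 48.7, 49.2 and 40.6 CPM in SM. The groups covered the same range and the log2 change was 0.02 (standard error 0.09). This value had no stable sign, running from -0.05 to 0.11 when single libraries were left out and standing at -0.03 with scaling by library size only, and the third library was the lowest in both male groups.

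*Creld2* and *Manf* encode small ER proteins that can be secreted and are induced by ER stress, the latter a factor with neurotrophic activity. *Creld2* (ENSMUSG00000023272, chromosome 15, 88650076 to 88657111) had 17.2, 18.1 and 17.3 CPM in NSM and 13.8, 11.7 and 13.2 CPM in SM. *Manf* (ENSMUSG00000032575, chromosome 9, 106740643 to 106794310) had 47.6, 50.2 and 40.9 CPM in NSM and 34.3, 32.5 and 31.5 CPM in SM. Neither gene overlapped between the groups, and the log2 changes were -0.45 (standard error 0.09) and -0.49 (standard error 0.08). *Xbp1* (ENSMUSG00000020484, chromosome 11, 5420662 to 5425896), the one transcription factor of the set, had 97.0, 95.4 and 87.0 CPM in NSM and 68.3, 62.6 and 62.8 CPM in SM. Its SM libraries were also all below its NSM libraries, with a log2 change of -0.53 (standard error 0.07). Counts per gene do not separate spliced from unspliced *Xbp1* mRNA.

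**Figure D2:**
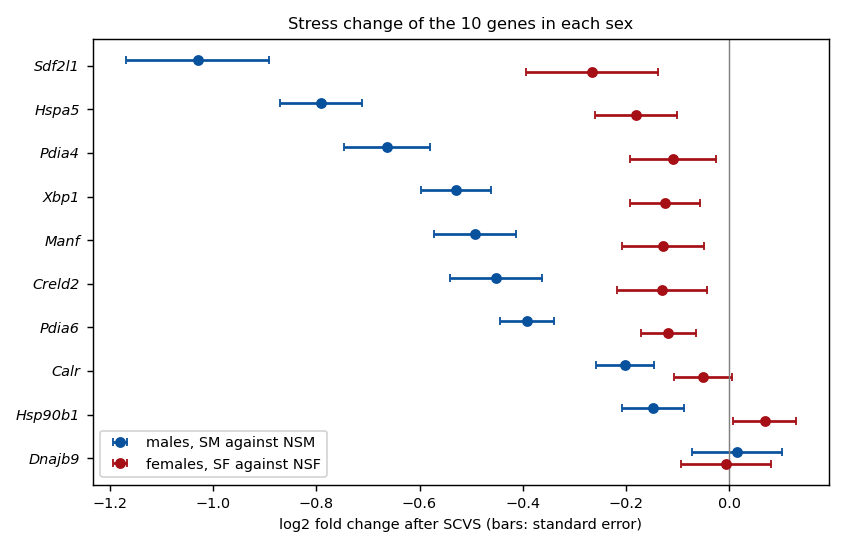
Log2 fold change after SCVS of each of the 10 genes in males (SM against NSM, blue) and in females (SF against NSF, red), with bars for the standard error of the voom-limma fit. In males *Sdf2l1* has the most negative value (-1.03) and *Dnajb9* lies at 0.02, while in females the values run from -0.27 to 0.07.

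The cortical marker level moved with these values and is given beside them. The mean log2 level of the 14 markers was 0.80 to 1.56 in the NSM libraries and 2.07 to 3.36 in the SM libraries. These ranges do not overlap, so stress and the cortical level cannot be told apart in males. The fit with this covariate is a description and does not divide the male changes between them. With this level as a covariate in the fit over all genes, 6 members were called lower in males, beside 5.16% of all tested genes called lower in that fit, and *Pdia6* had a log2 change of -0.35. The changes were then -0.69 for *Hspa5*, -0.99 for *Sdf2l1*, -0.56 for *Pdia4*, -0.43 for *Xbp1* and -0.04 for *Hsp90b1*, and the number of all genes with an adjusted p under 0.05 in males was 42 in place of 618. The NSF libraries covered the widest span of the cortical level, 1.76 to 3.98, with a summed level of the 10 genes of 1201, 1308 and 1313 CPM. The part of erythroid, oligodendrocyte and microglial RNA in the male values was not tested.

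**Figure D3:**
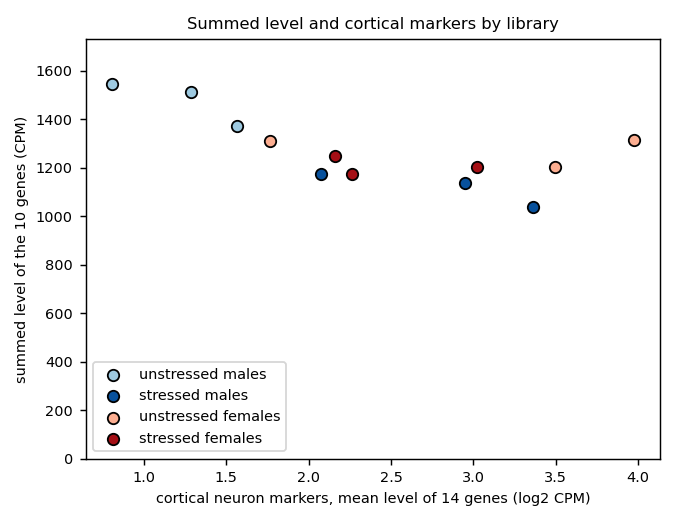
Summed level of the 10 genes in CPM (linear axis from 0) against the mean log2 CPM of 14 cortical neuron markers, one point per library. The NSM libraries lie at 1370 to 1546 CPM with the 3 lowest cortical levels, the SM libraries at 1036 to 1172 CPM, and the female libraries at 1175 to 1313 CPM.

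The same comparison was made in females. None of the 10 members was called, beside 1.09% of all tested genes called lower and 0.64% called higher, and the median log2 change of the members was -0.12 against -0.00 over all genes. Without the fold rule 2 members would be counted in females, beside 4.23% of all tested genes. *Hspa5* stood at 306, 355 and 366 CPM in NSF and at 321, 284 and 299.8 CPM in SF. The groups overlapped, and the log2 change was -0.18 (standard error 0.08). *Sdf2l1* stood at 6.20, 7.85 and 9.22 CPM in NSF and at 6.54, 6.20 and 6.44 CPM in SF, a log2 change of -0.27 (standard error 0.13). The NSF libraries spread widely and enclosed the SF libraries, and without the first NSF library the log2 change was -0.39 and *Sdf2l1* was called.

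*Pdia6* was the one member for which the 3 SF libraries (101, 92.9 and 97.1 CPM) lay below the 3 NSF libraries (102, 106 and 106 CPM). That arrangement held for 6.41% of the tested genes. *Hsp90b1* was arranged the other way, at 231, 237 and 226 CPM in NSF and 243, 246 and 238.4 CPM in SF. Its log2 change was 0.07 (standard error 0.06). The share of all tested genes arranged in that direction was not computed, so nothing is read from it. For *Pdia4*, *Xbp1*, *Manf*, *Creld2* and *Calr* the groups overlapped, with log2 changes between -0.13 and -0.05. *Dnajb9* was again near 0, at -0.01.

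The difference between the stress changes of the sexes (female minus male) was above 0 for 9 of the 10 members, and *Dnajb9* had -0.02. It was 0.61 for *Hspa5* (standard error 0.11), 0.76 for *Sdf2l1* (0.19), 0.55 for *Pdia4* (0.12) and 0.41 for *Xbp1* (0.10), and these 4 members were called. Among all tested genes 2.25% were called in this direction and 2.17% in the other. The other members had values between 0.15 (*Calr*) and 0.36 (*Manf*), with a median over the set of 0.34 beside 0.01 over all genes. With the cortical level as a covariate the median was 0.26.

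The levels behind this difference were also compared between the sexes, before and after stress. Without stress each of the 10 genes had a lower mean in females, by a median log2 difference of -0.21, and for *Hspa5*, *Hsp90b1*, *Pdia4*, *Pdia6* and *Xbp1* all NSF libraries were below all NSM libraries. The largest of these differences was that of *Hspa5* (-0.33), with 342 ± 32.01 CPM in NSF and 429.7 ± 36.1 CPM in NSM (SD, n = 3). No member reached the fold of 1.3, and 1.15% of all genes were called lower in NSF. After stress the log2 difference was above 0 for all members but *Dnajb9*. For *Hsp90b1* (0.01, standard error 0.06) and *Calr* (0.05, standard error 0.06) it was within its standard error, so that no difference between the sexes was resolved. The SF libraries were all above the SM libraries for *Hspa5*, *Pdia4*, *Sdf2l1* and *Creld2*. *Sdf2l1* was called (log2 difference 0.54), beside 4.58% of all genes called higher in SF. The shares of all genes with such arrangements between the sexes were not computed, so nothing is read from these arrangements. Both sex differences use the libraries of the stress comparisons and are not independent of them. In sum the 4 groups ranked NSM, NSF, SF and SM for *Hspa5*, with 429.7 ± 36.1, 342 ± 32.01, 302 ± 18.4 and 248 ± 16.7 CPM, and NSF and SF were neighbors whose libraries overlapped.

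Within groups the members varied together. Each log2 level was taken as its deviation from the mean of its group, which removes the stress and sex differences, and the Pearson r between members was computed over the 12 libraries. The libraries share the scaling of all genes, so this is a description. The median r over the 45 pairs was 0.66, with 43 pairs above 0 and 31 above 0.5. *Hspa5* and *Manf* were the closest pair (r = 0.96), and *Dnajb9* and *Creld2* the most distant (r = -0.22). Against the mean of the other 9 members, *Hspa5* had an r of 0.98, *Manf* 0.96, *Pdia6* 0.89, *Calr* 0.88 and *Xbp1* 0.85. *Pdia4* (0.79) and *Sdf2l1* (0.71) followed, and *Hsp90b1* (0.50), *Creld2* (0.49) and *Dnajb9* (0.43) were the least alike. For 14387 other genes the median r with the mean of the members within groups was 0.02. The r between pairs of other genes was not computed.

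The shared deviations could be seen in single libraries. All 10 members were below the group mean in the third NSM library, 9 in the first NSF library, 9 in the third SM library and 8 in the second SF library, whereas none was below it in the second NSM and the first SF library. The median deviation was -0.11 in the third NSM library and -0.13 in the first NSF library on the log2 scale. Without the third NSM library the median pair r was 0.56. Among the libraries with low members, the third NSM library and the third SM library had the highest cortical marker level of their groups (1.56 and 3.36), and the first NSF library and the second SF library did not (3.497 and 2.26, against 3.98 and 3.02 in the third NSF and the third SF library). Over the 12 libraries the deviations of this level and of the members had an r of -0.42.

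**Figure D4:**
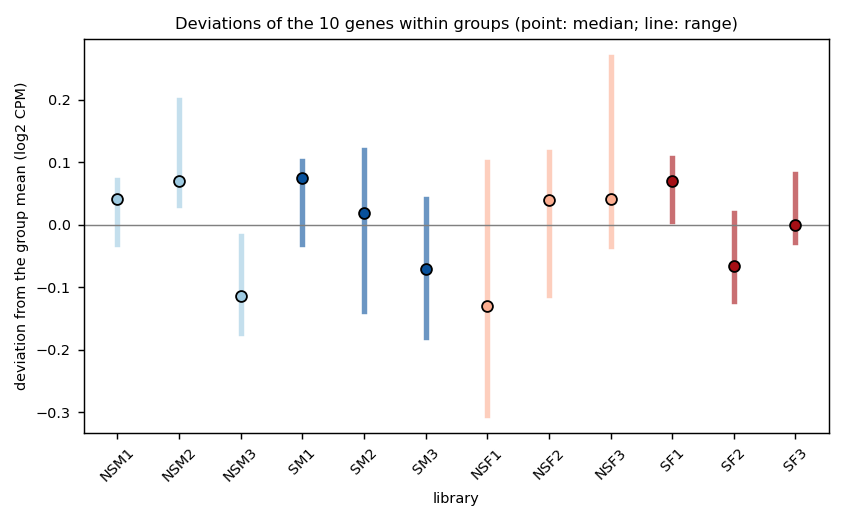
Deviation of the 10 genes from their group mean in each library (log2 CPM), with the median as a point and the range of the 10 genes as a line. The third NSM library (median -0.11), the first NSF library (-0.13), the third SM library (-0.07) and the second SF library (-0.07) lie below 0.

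The genes whose levels most resembled the mean of the members were sought among 14387 other genes with a mean of at least 50 reads. Over the 12 libraries, group differences included, the 10 most alike were *Nadk* (r = 0.96), *Hyou1* (0.96), *Mtmr4* (0.93), *Akap10* (0.92), *Zfp933* (0.91), *Ssh2* (0.91), *Papola* (0.91), *Dnajc3* (0.91), *Pdk4* (0.91) and *Chst10* (0.91). *Hyou1*, an ER chaperone of the Hsp110 type, and *Dnajc3*, an ER J-domain protein, belong to the folding machinery, and *Dnajb11* ranked 19th with 0.89. On the deviations within groups the ranking was led by *Gtf2i* (0.93), *Wipi2* (0.93), *Phtf2* (0.93), *Pitpnc1* (0.92), *Zfp868* (0.91), *Btbd9* (0.91), *Znfx1* (0.91), *Rpl7l1* (0.91), *Pla2g15* (0.90) and *Mtmr4* (0.90), none of them in the pathway lists. *Dnajb11* then ranked 14th (0.89), *Dnajc3* 35th (0.85) and *Hyou1* 46th (0.84). An r of at least 0.8 was reached by 153 of the other genes over all libraries and by 122 (0.848%) within groups.

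The other genes of the pathway were listed by their known roles, with earlier results of these libraries known and after the 10 members had been taken out, and each was tested in the fit over all genes. Of 161 such genes 158 passed the filter (*Ern2*, *Gdf15* and *Fgf21* did not). In males 5 were called lower (3.16%) and 3 higher (1.90%), beside 4.08% and 2.36% of all tested genes. An adjusted p under 0.05 in limma was reached by 12 of the 158 (11 lower, 1 higher). Among all 18593 tested genes it was reached by 618 (3.32%), of which 342 were lower and 276 higher. The median log2 change of the 158 genes in males was -0.01. Without the first NSM library 9 were called lower and 1 higher. They are given here by role.

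Among 33 other chaperones and folding enzymes of the ER, 1 was called lower and 1 higher in males, and 5 were lower and 1 higher at an adjusted p under 0.05, with a median log2 change of -0.02. *Hyou1* fell by 0.26 in log2 units (adjusted p = 0.020 in limma, standard error 0.05), from 149, 145 and 137 CPM in NSM to 126, 119 and 115 CPM in SM. *Dnajc3* fell by 0.23 (adjusted p = 0.043 in limma), from 74.2, 75.5 and 66.1 CPM to 62.2, 63.1 and 57.9 CPM. The SM libraries of both genes were all below the NSM libraries, though neither change reached the fold of 1.3. *Uggt1*, which returns unfolded glycoproteins to calreticulin and calnexin, fell by 0.21 (adjusted p = 0.027 in limma), and *Creld1*, the paralog of *Creld2*, by 0.24 (adjusted p = 0.048 in limma). *Serpinh1*, the collagen chaperone HSP47, fell by 0.48 (adjusted p = 0.047 in limma) and *Clgn*, a relative of calnexin, rose by 0.33 (adjusted p = 0.0497 in limma). *Cdnf*, the paralog of *Manf*, was called higher, with a log2 change of 0.41 and an adjusted p of 0.12 in limma, and lost the call without the first or second NSM library or the first SM library. *Canx*, *Pdia3* and *P4hb*, 3 of the most abundant folding proteins of the ER, had log2 changes of 0.03, -0.13 and 0.05 (adjusted p = 0.84, 0.22 and 0.59 in limma). *Dnajb11*, for all its likeness to the members, had -0.20 with an adjusted p of 0.13 in limma.

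Among 30 genes of ER-associated degradation, which returns misfolded proteins to the cytosol, 2 were called lower in males, and the median log2 change was 0.00. *Syvn1*, the ubiquitin ligase HRD1, fell by 0.38 (standard error 0.08, adjusted p = 0.024 in limma), from 42.6, 47.3 and 52.7 CPM to 36.1, 34.6 and 38.4 CPM. Its change lay at the edge of the fold rule, and DESeq2's size factors (-0.37) and leaving out single libraries (to -0.29) took it below 1.3-fold. *Derl3*, a channel component, was called at -0.55 (adjusted p = 0.090 in limma) on a mean of 86 reads, and with the cortical level as a covariate it had -0.41 and was not called. *Herpud1* fell by 0.22 (adjusted p = 0.044 in limma), and *Sel1l*, the partner of HRD1, had -0.10 (adjusted p = 0.26).

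Of 23 sensors of the response and factors that work with them, 1 was called higher and none lower in males, with a median log2 change of -0.05. *Ern1* (IRE1) had -0.05, *Eif2ak3* (PERK) 0.04 and *Atf6* 0.18, with adjusted p of 0.70, 0.74 and 0.17 in limma. *Nfya*, a subunit of NF-Y, fell by 0.27 (adjusted p = 0.017 in limma). *Wfs1*, which encodes the ER membrane protein wolframin, had 543.9 ± 39.5 CPM in NSM and 434 ± 75.6 CPM in SM (SD, n = 3), but 431 ± 55.4 CPM in NSF and 525 ± 24.1 CPM in SF. Its log2 change was -0.34 in males and 0.29 in females (adjusted p = 0.10 and 0.95 in limma), short of the fold of 1.3 in both. *Casp12*, the called gene, had 0.52 on a mean of 25.2 reads (adjusted p = 0.19 in limma), and the call was lost in 4 of the fits without one library, the lowest of them 0.49. Among 33 genes of the integrated stress response (ATF4, its targets, and the kinases and phosphatase subunits that act on eIF2α), *Atf3* (-0.73, adjusted p = 0.083 in limma) and *Stc2* (-0.52, adjusted p = 0.046 in limma) were called lower. *Atf4* and *Ddit3* themselves had 0.04 and -0.05 (adjusted p = 0.82 and 0.62 in limma), while *Slc7a11*, the cystine transporter, fell by 0.30 (adjusted p = 0.033 in limma) and *Eif2ak4*, the eIF2α kinase GCN2, by 0.27 (adjusted p = 0.024 in limma). Of 39 genes of translocation and early secretion, *Kdelr3*, a receptor that returns ER proteins from the Golgi, was the one called, with 0.91 on a mean of 15.2 reads (adjusted p = 0.082 in limma).

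In females 1 of the 158 genes was called lower (0.633%) and none higher, none had an adjusted p under 0.05 in limma, and 4 had an unadjusted p under 0.05. The called gene was *Trib3*, a target of ATF4 and CHOP, with 3.38, 2.95 and 3.67 CPM in NSF and 2.58, 1.96 and 2.05 CPM in SF. The groups did not overlap, but the adjusted p of the log2 change of -0.60 was 0.95 in limma. *Trib3* had -0.31 in males. Of the genes named above, *Hyou1* had -0.02 in females, *Dnajc3* 0.04, *Herpud1* -0.05, *Syvn1* -0.10, *Serpinh1* 0.00 and *Stc2* -0.05. The difference between the sexes was called for 7 of the 158 genes by the unadjusted rule, 6 of them higher in females (*Atf3* 0.68, *Derl3* 0.65, *Wfs1* 0.63, *Serpinh1* 0.49, *Stc2* 0.47 and *Sec61b* 0.38) and *Casp12* lower (-0.65). None of these differences had an adjusted p under 0.05 in limma, and 19 of the 158 had an unadjusted p under 0.05.

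For comparison, 16 cytosolic and mitochondrial heat shock chaperones were counted. In males 5 of the 16 were called lower and none higher, beside 4.08% and 2.36% of all tested genes. An adjusted p under 0.05 in limma was reached by 9 of them, all lower, beside 342 lower and 276 higher of the 18593 tested genes. The median log2 change of the 16 was -0.22. In females none was called and the median was 0.04.

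The ERSE was also looked up in genes outside the set. It was in the window of 32 other genes, of which 15 were tested. In males 5 of the 15 were called lower and none higher, beside 4.08% and 2.36% of all tested genes. An adjusted p under 0.05 in limma was reached by 2 (*Syvn1* and *Dnajc3*), beside 3.32% of all tested genes. The median log2 change of the 15 was -0.07. The other called genes were *Derl3*, *Zfp57* (-0.66) and the near-identical copies *Xlr3a* (-0.72) and *Xlr3b* (-0.73). Reads that fit both copies cannot be assigned to either, so these 2 calls may not be independent. *Canx* carries the element too, with a log2 change of 0.03, and the 11 genes in none of the pathway lists had a median of -0.06 in males. In females none of the 15 was called, with a median of 0.03. Among the members, *Hspa5* (-0.79), *Creld2* (-0.45), *Pdia6* (-0.39), *Calr* (-0.20) and *Hsp90b1* (-0.15) have a match in the window. *Sdf2l1* (-1.03), *Pdia4* (-0.66), *Xbp1* (-0.53) and *Dnajb9* (0.02) have none. The members were chosen with these changes known and only exact letters were searched, so a relation between element and change was not tested.

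**Figure D5:**
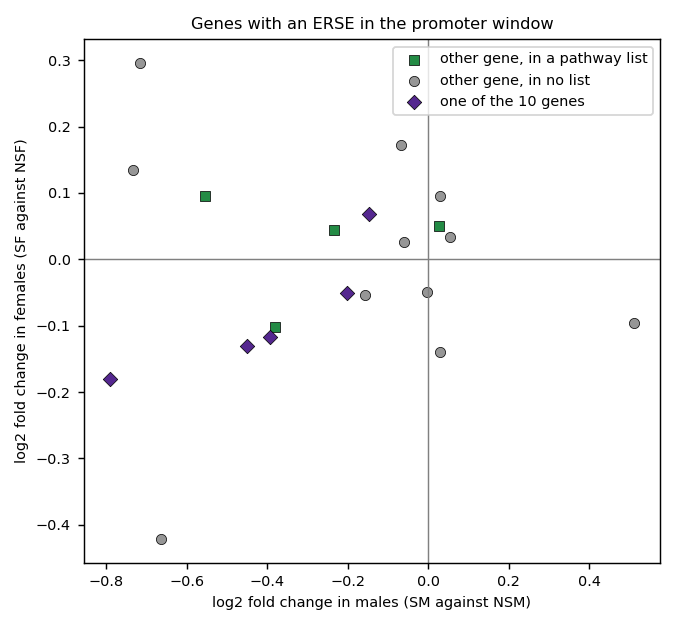
Log2 fold change after SCVS in males (horizontal axis) and in females (vertical axis) of the tested genes with an ERSE in the promoter window: 5 of the 10 genes (diamonds), 4 other genes of the pathway lists (squares) and 11 genes in no list (circles). The 5 diamonds lie between -0.79 and -0.15 in males, and the circles between -0.73 and 0.51.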

How the data were processed

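RNA from the NAc was sequenced in 12 libraries (3 for each sex with or without stress, every one from 5 pooled mice), and every library was assigned to its group from its label. Paired 50-base reads had been placed by the authors on NCBIM37 (Ensembl version 67) with TopHat2, and HTSeq gave the counts for each gene. The deposited values are raw read counts without normalization, and the strand setting is not given in the sources used here. A small RNA table of the study was not used here. Between 41076780 and 60867747 reads per library were counted. Symbols and coordinates come from the GENCODE annotation of NCBIM37 and promoter windows from RefSeq (GRCm38.p6), and no coordinates were carried from one build to the other.

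Genes needed over 5 reads in 80% or more of the libraries within a group, and were scaled by TMM (edgeR 4.0.16) and fitted with voom and limma 3.58.1 in R 4.3.3, with one mean per group. Adjusted p are Benjamini-Hochberg values over all 18593 tested genes. The call rule was that of the study: unadjusted p under 0.05 together with a 1.3-fold change or more. The members and lists were chosen with earlier results of these data known, so the members carry no test. All members are described. Other pathway genes are named when called with a mean of at least 10 reads, and *Ern1*, *Eif2ak3*, *Atf6*, *Atf4*, *Ddit3*, *Hyou1*, *Canx*, *Pdia3*, *P4hb*, *Dnajb11*, *Dnajc3*, *Herpud1*, *Syvn1* and *Sel1l* whatever their values. *Clgn*, *Uggt1*, *Creld1*, *Nfya*, *Slc7a11* and *Eif2ak4* (adjusted p), *Wfs1* and *Sec61b* (sex difference) and the other genes with the element were named after their values were seen. The model was tested on simulated data. Alternatives included edgeR's quasi-likelihood test, DESeq2 1.42.0, other scalings and filters, other call rules, library weights, a cortical marker covariate, replicate blocks and fits without one library. Plots were drawn with matplotlib 3.10.9 in Python 3.11.15.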

Additional observations from a re-analysis of the deposited data

How the results depend on the processing

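No called result changed direction under any alternative. The count of members called in males was 7 under most alternatives 6 with the cortical marker covariate and 9 without the fold rule. Asking for an adjusted p under 0.05 in place of the unadjusted one, beside the 1.3-fold change, left 3 other pathway genes lower and 0 higher in males, 0 lower in females and 0 for the sex difference. Without the fold rule, by which 3992 of the 18593 tested genes pass in males and 786 in females, 24 other pathway genes were lower and 16 higher in males, 2 members and 3 other pathway genes were lower and 1 higher in females, and 19 differed between the sexes. The sex difference was called for 4 of them with library quality weights and 2 with the cortical covariate, which took its median over the members to 0.26. With scaling by library size only the median pair r was 0.62. In fits that each dropped 1 library, 6 to 7 members were called in males and 0 to 1 in females, and the count of other pathway genes ran from 4 to 9 lower and 1 to 3 higher in males, 1 to 2 lower and 0 to 2 higher in females, and 4 to 6 for the sex difference. The 2 lower in females came without the second NSF or the third SF library and the 2 higher without the second NSF library. The median log2 values of the members ran from -0.51 to -0.42 in males, -0.18 to -0.08 in females, 0.28 to 0.40 for the sex difference and -0.27 to -0.18 between unstressed sexes, and the median pair r from 0.56 to 0.71. Same-numbered libraries did not all deviate together (r of 0.02, -0.00 and 0.32 in males, 0.10, 0.08 and 0.11 in females), so the numbers were taken as names; with a replicate block 7 members were called in males, and 5 other pathway genes lower and 3 higher. Exact permutation of 3 against 3 pools cannot give a p under 0.05 for a single gene, and genes such as *Kdelr3* and *Casp12* rest on few reads.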
